A study of Mus musculus with 15 samples.

Results

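The genes described here code for 9 enzymes that supply glycerol 3-phosphate or build triglyceride from it: Pck1, Gpd1, Gpam, Gpat3, Agpat2, Agpat3, Lpin1, Dgat1 and Dgat2. They were taken by gene name and not by a rule on measured values, as 9 of the 46603 Ensembl genes counted in every sample. The choice was made with earlier results of these data known. Other isoenzymes of the same steps are counted below as a separate list. All 9 passed the filter on low counts and were among the 15997 genes tested. Wild-type mouse embryonic fibroblasts (MEFs) of strain BALB/c, from embryos of 10.5 days, were sampled as day 0 (MEFD0), untreated at day 3 and day 5 (MEFD3min, MEFD5min), and treated at day 3 and day 5 (MEFD3plu, MEFD5plu), with 3 samples in each of the 5 conditions. All cells were kept in DMEM with 10% foetal bovine serum (growth medium). For treated cells the medium up to day 3 also held insulin at 10 μg/mL, the glucocorticoid dexamethasone at 1 μM, the PPARγ agonist rosiglitazone at 10 μM and the phosphodiesterase inhibitor IBMX at 0.5 mM, and MEFD5plu cells were then returned to growth medium without these agents until day 5. MEFs are a mixed population of embryonic connective tissue cells, and the labels do not say from how many embryos they came or whether replicates 1, 3 and 4 of a condition were separate cultures, so p-values measure only the spread between these samples.

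Triglyceride is the storage lipid of the fat cell. Its glycerol backbone enters as glycerol 3-phosphate, made from glycolytic dihydroxyacetone phosphate or, by glyceroneogenesis, from pyruvate and oxaloacetate, and fatty acids activated to acyl-CoA are then added at the endoplasmic reticulum and the outer mitochondrial membrane to give lysophosphatidate, phosphatidate, diacylglycerol and finally triglyceride. Most steps have several isoenzymes, and lysophosphatidate, phosphatidate and diacylglycerol are also precursors of membrane phospholipids, so a fibroblast that stores little fat still runs the earlier steps.

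Libraries held between 24030558 and 37281126 counts on genes. Values are CPM, a gene's counts relative to the library size after scaling by TMM (the trimmed mean of M-values). Summed levels of 9 adipocyte marker genes ran from 42.2 to 65.2 CPM in the 9 MEFD0, MEFD3min and MEFD5min samples, from 7446 to 9171 CPM in MEFD3plu and from 9682 to 11441 CPM in MEFD5plu. The 9 fibroblast markers were all detected in every condition at sums of 8252 to 28386 CPM. In treated cells 7 of them were lower and 1 higher at day 3, and 2 lower and 2 higher at day 5. Over all 15997 genes tested, 4487 were lower and 4480 higher at day 3, and 3870 lower and 4210 higher at day 5. Lists for hepatocytes, macrophages, endothelium, epithelium, skeletal muscle and neurons summed to at most 15.1 CPM in any sample. The 6 macrophage markers summed to 10.2 to 15.1 CPM in untreated and 6.02 to 10.8 CPM in treated samples, and of the 4 tested 2 were lower and 0 higher at each day, with Adgre1 at 0 in every sample and Ptprc at 0 in the treated ones. Of the 4 epithelial markers, which summed to at most 1.19 CPM, the 1 tested, Krt8, was lower in treated cells at day 3 and higher at day 5 (0.0849 CPM in MEFD5min and 0.668 CPM in MEFD5plu). Sums of the neuron list were 5.52 to 6.45 CPM in MEFD3plu, nearly all of it Snap25, and at most 1.24 CPM elsewhere. Adipocyte markers thus moved with treatment together with the enzyme genes, their part in these results was not tested, and in bulk RNA a larger number of fat-storing cells and more enzyme RNA per cell cannot be told apart.

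Treatment was compared with no treatment at each day. All 9 enzyme genes were higher in treated cells at day 3 (MEFD3plu/MEFD3min) at an adjusted p under 0.05 (quasi-likelihood test of edgeR, Benjamini-Hochberg adjustment over all genes tested), where 28.0% of all genes tested were called higher. At day 5 (MEFD5plu/MEFD5min) all 9 were again higher, where 26.3% of all genes were. Every treated sample of every enzyme lay above all 3 untreated samples of the same day, which was so for 28.6% of all genes at day 3 and for 32.5% at day 5. The median log2 fold change of the 9 genes was 4.08 at day 3, with a median of -0.00057 over all genes tested, and 2.86 at day 5, with 0.01 over all genes. The size of the increase differed widely between steps. Among the 8 genes with reads before treatment, Gpd1, Dgat2 and Agpat2 had the 3 largest fold changes at both days. The smallest were those of Agpat3 and Gpam at day 3 and of Gpam and Lpin1 at day 5.

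**Figure D1:**
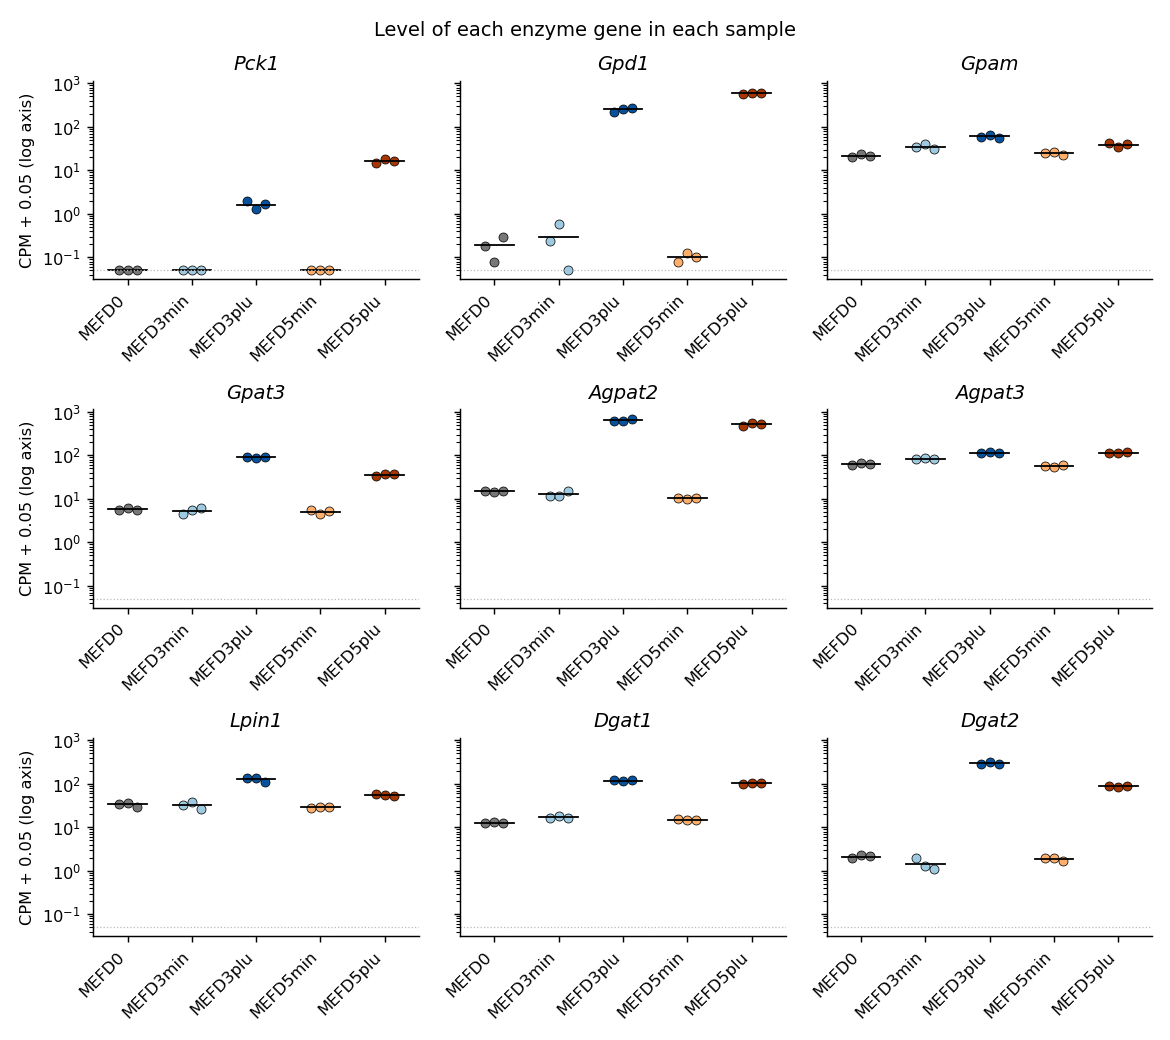
CPM plus 0.05 on a log axis (vertical) for each of the 9 enzyme genes in the 5 conditions (horizontal), with 1 point per sample, 3 samples per condition and a bar at their mean; the dotted line marks 0 CPM. Treated samples lie above the untreated ones of the same day in every panel, while for Gpam the MEFD5plu samples overlap those of MEFD3min. The panels run from Pck1 with 0 counts in all 9 untreated samples to Agpat3, which ranged only from 55.3 to 119 CPM.

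Glycerol 3-phosphate supply was read from Pck1 and Gpd1. Pck1, cytosolic phosphoenolpyruvate carboxykinase, makes phosphoenolpyruvate from oxaloacetate and is the committed enzyme of glyceroneogenesis. It lies on the plus strand of chromosome 2 at 173153048 to 173159273 of GRCm38. No read was counted on Pck1 in any of the 9 MEFD0, MEFD3min and MEFD5min samples, which allows at most 3 counts per library, or 0.0795 to 0.117 CPM depending on the library. In MEFD3plu it had 1.91, 1.25 and 1.61 CPM, from 56, 40 and 57 reads, in replicates 1, 3 and 4. In MEFD5plu it had 14.4, 18.3 and 16.6 CPM, from 485, 568 and 552 reads. Pck1 thus went from not detected to low at day 3 and to a moderate level at day 5. Against 3 counts per untreated library, it was at least 17.1-fold higher in treated cells at day 3 and at least 175-fold higher at day 5 (adjusted p = 4.38e-07 and 3.80e-09). Its start region is shown because this is the one enzyme gene with no reads before treatment: the 225 bases at chr2:173152823-173153047 of GRCm38.p6, plus strand, 5′ to 3′, from RefSeq, which end 1 base before the first annotated exon, with capitals marking 8 bases of the cAMP response element type. The pattern matched, TNACGTCA, was added to the search after the windows were seen, and 2.52% of all windows held it. The planned pattern TGACGTCA was not found there.

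Pck1: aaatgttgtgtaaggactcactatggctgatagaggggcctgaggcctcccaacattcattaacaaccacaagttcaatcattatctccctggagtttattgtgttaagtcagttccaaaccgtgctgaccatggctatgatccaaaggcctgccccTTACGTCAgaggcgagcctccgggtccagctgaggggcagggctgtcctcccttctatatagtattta

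Gpd1, cytosolic glycerol-3-phosphate dehydrogenase, reduces dihydroxyacetone phosphate to glycerol 3-phosphate. The gene is on the plus strand of chromosome 15, 99717515 to 99725005. In MEFD0 it had 4, 1 and 9 reads in replicates 1, 3 and 4, in MEFD3min 6, 19 and 0, and in MEFD5min 1, 2 and 2. In MEFD3plu 6539, 8223 and 9784 reads were counted, or 223, 258 and 276 CPM, and in MEFD5plu 19550, 18474 and 19702 reads, or 582, 595 and 594 CPM. Gpd1 was therefore at the edge of detection in every untreated sample, and its treated level rose further from day 3 to day 5. At day 3 the log2 fold change was 9.92 (standard error 0.311, adjusted p = 8.74e-14). At day 5 the 57726 reads of the treated samples stood against 5 of the untreated ones, a ratio of 11629 after scaling, with a 95% counting interval of 4983 to 35816 (adjusted p = 2.44e-14). Of the 25 Gpd1 reads in MEFD3min, 19 came from replicate 3, and in the same replicate the adipocyte genes Adipoq and Cidec had 27 and 25 reads, against 0 and 4 in replicate 1 and 1 and 0 in replicate 4. Among the other adipocyte markers, Fabp4 (6.66 CPM), Lpl (39.8 CPM), Pparg (13.2 CPM) and Cebpa (5.52 CPM) were highest in replicate 4 of MEFD3min. Plin1 and Slc2a4 had at most 2 reads in any MEFD3min sample, and Lep had 0. Whether a few fat-storing cells were present in MEFD3min replicate 3 was not tested. Without it the log2 fold change of Gpd1 at day 3 was 11.28. The antisense gene Gm16537 overlaps 13.0% of Gpd1 exon bases but had at most 2 reads in any sample.

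The first acylation, of glycerol 3-phosphate, was covered by Gpam and Gpat3. Gpam, the mitochondrial acyltransferase GPAT1, is on the minus strand of chromosome 19, 55067268 to 55127238. Its levels were 33.8, 41.2 and 30.8 CPM in MEFD3min and 59.7, 66.7 and 54.6 CPM in MEFD3plu. At day 5 they were 24.4, 26.1 and 23.1 CPM without treatment and 42.9, 34.8 and 39.5 CPM with it. Treated samples were higher at each day without overlap, but the MEFD5plu samples overlapped those of MEFD3min. The log2 fold change was 0.77 at day 3 (standard error 0.113, adjusted p = 1.74e-05) and 0.67 at day 5 (standard error 0.115, adjusted p = 0.000129).

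Gpat3, the endoplasmic reticulum isoenzyme GPAT3, is on the plus strand of chromosome 5, 100845713 to 100899102. In MEFD3min 4.48, 5.53 and 5.99 CPM were measured and in MEFD3plu 91.9, 87.0 and 92.1 CPM. At day 5 the values were 5.36, 4.44 and 5.11 CPM untreated and 33.4, 37.1 and 38.2 CPM treated. Treated and untreated samples were far apart at both days, with log2 fold changes of 4.08 at day 3 (standard error 0.113, adjusted p = 1.93e-14) and 2.86 at day 5 (standard error 0.11, adjusted p = 1.77e-12). An antisense gene, 4930458D05Rik, overlaps 30.0% of Gpat3 exon bases and had 117 to 170 reads in MEFD3plu, where Gpat3 had 2694 to 3266, and the same-strand Gm42987 overlaps 7.40%. The sources differ on whether the library kit kept strand, so Gpat3 counts are less certain than the others.

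The second acylation makes phosphatidate. Agpat2, an endoplasmic reticulum acyltransferase whose loss causes congenital generalized lipodystrophy in people, is on the minus strand of chromosome 2, 26593057 to 26604417. In MEFD3min 11.4, 11.7 and 15.1 CPM were measured, and in MEFD3plu 618, 615 and 703 CPM. At day 5 the untreated samples had 10.2, 9.97 and 10.5 CPM and the treated ones 470, 562 and 535 CPM. Per kb of exon, treated Agpat2 had the highest mean level of the 9 genes, 303 ± 23.5 CPM per kb in MEFD3plu and 245 ± 22.3 in MEFD5plu. Its log2 fold change was 5.67 at both days (standard errors 0.122 and 0.123, adjusted p = 1.13e-15 and 2.41e-15). Agpat3, a second member of the enzyme family, is on the minus strand of chromosome 10, 78269178 to 78352489. It had 81.1, 85.5 and 81.2 CPM in MEFD3min and 112, 119 and 116 CPM in MEFD3plu, then 56.6, 55.3 and 59.4 CPM in MEFD5min and 116, 113 and 118 CPM in MEFD5plu. Agpat3 was well expressed before treatment and its log2 fold change was small but beyond the replicate spread, 0.48 at day 3 (standard error 0.0676, adjusted p = 1.03e-05) and 1.02 at day 5 (standard error 0.0683, adjusted p = 2.95e-09).

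The start regions of Gpam and Agpat2 are shown as those of a small and a large increase. They cover 250 bases each, at chr19:55127239-55127488 and chr2:26604418-26604667 of GRCm38.p6, both on the minus strand and written 5′ to 3′ in the gene's direction, from RefSeq, with no capitals because none of the motifs searched was found in them. Gpam has a second RefSeq window, at chr19:55099478-55099727, which is not shown and in which none of the motifs was found either.

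Gpam: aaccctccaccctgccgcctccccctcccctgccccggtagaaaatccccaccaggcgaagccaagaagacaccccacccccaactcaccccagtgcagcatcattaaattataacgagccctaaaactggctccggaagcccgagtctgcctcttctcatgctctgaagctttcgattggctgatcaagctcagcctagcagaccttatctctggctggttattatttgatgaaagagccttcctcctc

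Agpat2: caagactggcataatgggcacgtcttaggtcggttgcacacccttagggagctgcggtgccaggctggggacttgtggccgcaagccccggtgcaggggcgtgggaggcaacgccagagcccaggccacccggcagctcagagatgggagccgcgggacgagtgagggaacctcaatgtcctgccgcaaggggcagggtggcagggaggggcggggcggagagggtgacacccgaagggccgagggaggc

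Lpin1, the phosphatidate phosphatase lipin 1, removes the phosphate to give diacylglycerol and can also act as a transcriptional co-activator. It is on the minus strand of chromosome 12, 16535669 to 16610966. Its levels were 32.7, 38.6 and 26.7 CPM in MEFD3min and 135, 135 and 110 CPM in MEFD3plu. At day 5 they were 28.5, 29.0 and 29.1 CPM untreated and 57.3, 54.4 and 52.8 CPM treated. The rise was thus large at day 3 and smaller at day 5, with log2 fold changes of 1.95 (standard error 0.12, adjusted p = 3.50e-10) and 0.93 (standard error 0.118, adjusted p = 6.18e-06).

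Diacylglycerol is turned into triglyceride by Dgat1 and Dgat2, which belong to unrelated protein families. Dgat1 is on the minus strand of chromosome 15, 76502015 to 76511953. It had 16.6, 18.5 and 16.0 CPM in MEFD3min and 120, 115 and 123 CPM in MEFD3plu, and at day 5 it had 15.3, 14.3 and 14.7 CPM untreated and 101, 102 and 104 CPM treated. These are tight groups with log2 fold changes of 2.80 at day 3 (standard error 0.0763, adjusted p = 1.70e-14) and 2.79 at day 5 (standard error 0.0766, adjusted p = 2.35e-14). For Dgat2, on the minus strand of chromosome 7 at 99153658 to 99182719, the values were 1.94, 1.26 and 1.04 CPM in MEFD3min and 284, 314 and 284 CPM in MEFD3plu. At day 5 the untreated samples had 1.95, 1.95 and 1.60 CPM and the treated ones 90.8, 82.6 and 90.9 CPM. Dgat2 thus stood at 1.04 to 2.23 CPM without treatment and its treated and untreated groups were far apart. The log2 fold change was 7.69 at day 3 (standard error 0.153, adjusted p = 5.33e-16), and at day 5 it was 5.59 (standard error 0.143, adjusted p = 1.31e-14).

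**Figure D2:**
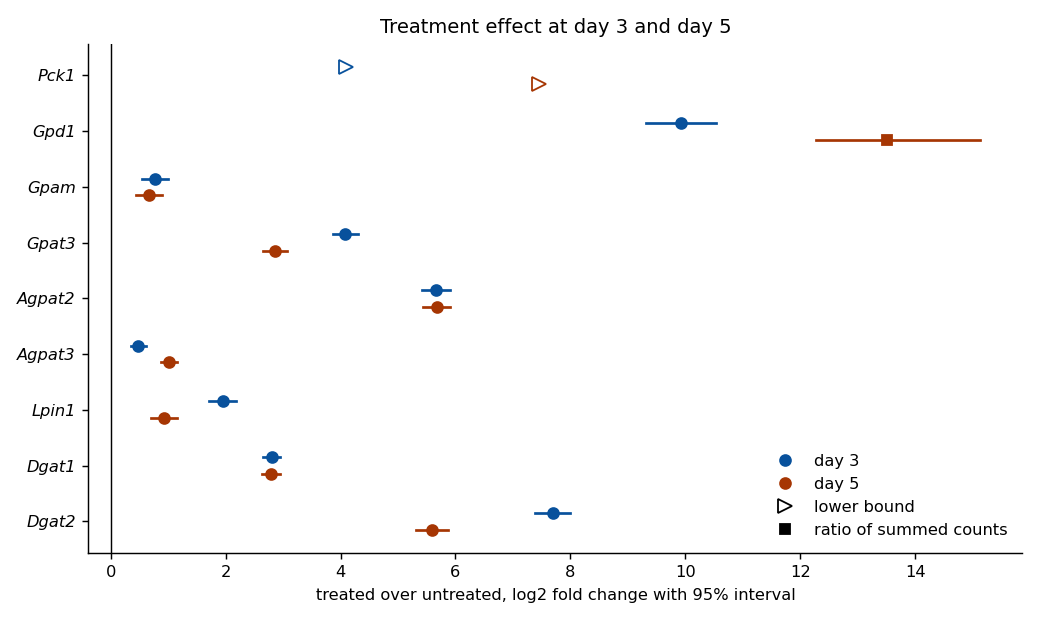
Log2 fold change of treated over untreated cells (horizontal) for the 9 enzyme genes (vertical) at day 3 and day 5, as circles with 95% intervals from the edgeR fit; open triangles for Pck1 are lower bounds, and the square for Gpd1 at day 5 is the ratio of summed counts with its counting interval. Every estimate lies above 0, from 0.48 for Agpat3 at day 3 to 9.92 for Gpd1 at day 3 and beyond for Gpd1 at day 5.

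Whether the treatment effect differed between the days was tested as the interaction of treatment and day. It passed for 5 of the 9 genes, and for 48.5% of all genes tested. The effect was larger at day 3 for Dgat2, by 2.1 on the log2 scale (standard error 0.209, adjusted p = 4.60e-07), for Gpat3, by 1.22 (standard error 0.151, adjusted p = 4.99e-06), and for Lpin1, by 1.02 (standard error 0.165, adjusted p = 8.04e-05). Agpat3 went the other way, with a day 3 minus day 5 difference of -0.53 (standard error 0.0956, adjusted p = 0.000209). Gpd1 did so too, at -3.48 (standard error 0.896, adjusted p = 0.00405), a size set by untreated samples with 0 to 19 reads, and without MEFD3min replicate 3 it was -2.11 and no longer passed (adjusted p = 0.108). The differences for Agpat2, Dgat1 and Gpam did not pass, with 95% intervals of -0.29 to 0.28, -0.19 to 0.22 and -0.21 to 0.42. For Pck1 the interaction cannot be estimated, because all untreated samples were at 0.

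Treated cells were then compared with each other, 2 days after the agents were removed (MEFD5plu/MEFD3plu). Of the 9 genes, 2 rose, 6 fell and 1 did not pass, where 33.8% of all genes rose and 29.2% fell. Those that rose were the 2 genes of glycerol 3-phosphate supply. Pck1 rose by 3.37 on the log2 scale (standard error 0.208, adjusted p = 1.14e-07) and Gpd1 by 1.23 (standard error 0.178, adjusted p = 1.45e-05), and for both every MEFD5plu sample was above every MEFD3plu sample. The call for Gpd1 was lost with DESeq2 (log2 fold change 1.19, adjusted p = 0.0918). Among the acylation and phosphatase genes, Dgat2 fell by 1.74 (adjusted p = 6.26e-10), Gpat3 by 1.32 (adjusted p = 5.74e-09), Lpin1 by 1.2 (adjusted p = 1.53e-07) and Gpam by 0.63 (adjusted p = 0.000132). Smaller falls were seen for Agpat2, by 0.30 (adjusted p = 0.0122), and Dgat1, by 0.22 (adjusted p = 0.0109). The Agpat2 call was lost without MEFD3plu replicate 4 (adjusted p = 0.0599) or without MEFD5plu replicate 1 (adjusted p = 0.0695), and the Dgat1 call when no filter on low counts was used (adjusted p = 0.0611). Agpat3 differed by 0.00 (95% interval -0.13 to 0.13) and its samples overlapped. Even after these falls, each of the 9 genes was higher in MEFD5plu than in MEFD0, where 35.2% of all genes were, and each was higher in MEFD3plu than in MEFD0, where 33.9% were. These comparisons share treated samples with those above and are given side by side.

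**Figure D3:**
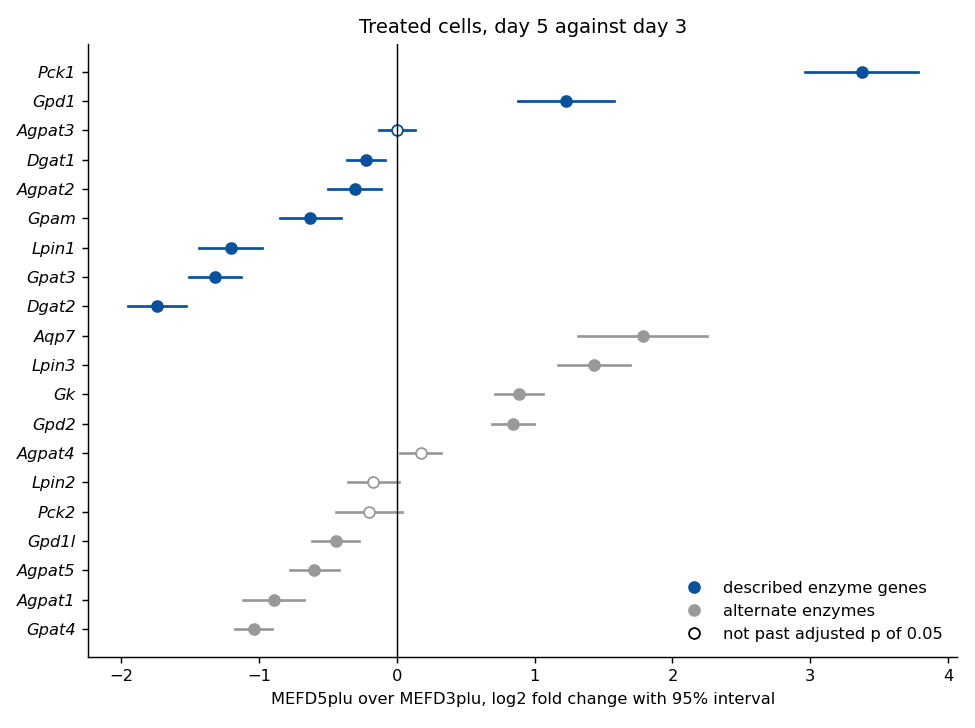
Log2 fold change of MEFD5plu over MEFD3plu (horizontal) with 95% intervals for the 9 enzyme genes (blue) and the 11 tested alternate enzymes and transporters (grey) on the vertical axis, with filled circles where the adjusted p is under 0.05. Pck1 at 3.37 and Gpd1 at 1.23 lie to the right of 0, and Dgat2, Gpat3, Lpin1, Gpam, Agpat2 and Dgat1 to its left.

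Changes without treatment were tested between the same days. From day 0 to day 3 (MEFD3min/MEFD0), 4 of the 9 passed, where 60.0% of all genes did. Gpam rose by 0.70 (adjusted p = 5.51e-05), from 20.8, 23.7 and 20.9 CPM in MEFD0, Dgat1 by 0.42 (adjusted p = 0.000123), from 12.5, 13.2 and 12.5 CPM, and Agpat3 by 0.37 (adjusted p = 0.000176), from 60.9, 68.3 and 63.1 CPM. Dgat2 fell by 0.56 (adjusted p = 0.0111) from 1.92, 2.23 and 2.09 CPM, with MEFD3min replicate 1 inside the MEFD0 range, and the call was lost without MEFD3min replicate 4 (adjusted p = 0.0596). Between day 3 and day 5 (MEFD5min/MEFD3min), 4 passed, all lower, where 42.8% of all genes passed. These were Agpat3 at -0.53 (adjusted p = 7.68e-06), Gpam at -0.52 (adjusted p = 0.00137), Agpat2 at -0.31 (adjusted p = 0.0304) and Dgat1 at -0.21 (adjusted p = 0.0348). Gpd1 had a larger estimate, -2.25 with a 95% interval of -4.01 to -0.48, from 25 reads in MEFD3min and 5 in MEFD5min, and did not pass (adjusted p = 0.0538), though it did with the replicate number as a block (adjusted p = 0.0481). The calls for Agpat2 and Dgat1 were each lost when any of 4 single samples was left out, with adjusted p-values of up to 0.177 and 0.16. By day 5 (MEFD5min/MEFD0) 2 of the 9 passed, where 46.4% of all genes did, with Agpat2 lower by -0.53 (adjusted p = 0.000774) and Dgat1 higher by 0.22 (adjusted p = 0.0284). The Dgat1 call was lost without any of 4 single samples (adjusted p up to 0.101).

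In the order of the 5 conditions by mean level, MEFD3plu and MEFD5plu took the top 2 places for all 9 genes. The share of all genes with these top 2 places was not counted. MEFD3plu was highest for Gpam, Gpat3, Agpat2, Lpin1, Dgat1 and Dgat2, and MEFD5plu for Gpd1 and Pck1. For Agpat3 they did not differ beyond their spread, at 115 ± 3.66 CPM in MEFD3plu and 116 ± 2.03 in MEFD5plu (mean ± SD, n = 3). Of the 34 neighbouring pairs in these orders that were not both at 0, 21 passed the test. In the comparisons these pairs came from, between 6845 and 10400 of all 15997 genes tested passed. The count of 21 therefore does not set the 9 genes apart. Gpam was the one gene with a treated condition that did not separate from an untreated one, 39.0 ± 4.07 CPM in MEFD5plu against 35.3 ± 5.37 in MEFD3min (adjusted p = 0.291). Among the 3 untreated conditions no neighbouring pair passed for Gpd1, Gpat3, Lpin1 or Dgat2, although MEFD0 and MEFD3min, which are not neighbours in the order for Dgat2, differed as given above. Dgat1 was ordered throughout, from 119 ± 3.67 CPM in MEFD3plu over 102 ± 1.69 in MEFD5plu, 17.0 ± 1.33 in MEFD3min and 14.8 ± 0.479 in MEFD5min to 12.7 ± 0.401 in MEFD0.

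Levels of isoenzymes of 1 step were compared as CPM per kb of exon. With 3 samples a condition they are given as mean ± SD with no test. The leading isoenzyme changed with treatment at several steps. Among the glycerol-3-phosphate dehydrogenase genes, Gpd1 made up 0.181 ± 0.149% of the summed level in MEFD0, 88.4 ± 1.18% in MEFD3plu and 93.3 ± 0.31% in MEFD5plu. The mitochondrial Gpd2, which oxidizes glycerol 3-phosphate, led in the 3 untreated conditions with 67.6% to 80.2%. Gpd1l held 21.3% in MEFD0, 31.8% in MEFD3min, 19.7% in MEFD5min, 5.52% in MEFD3plu and 1.83% in MEFD5plu. Since Gpd1 and Gpd2 act in opposite directions, these are shares of a gene group and not of glycerol 3-phosphate supply. Among the 5 Agpat genes, Agpat2 went from 9.52 ± 1.74% in MEFD3min to 82.7 ± 1.10% in MEFD3plu and from 9.65 ± 0.615% in MEFD5min to 83.2 ± 1.79% in MEFD5plu. Untreated cells were led by Agpat1 at day 0 and day 5 and by Agpat4 at day 3. Agpat3 fell in share from 16.9 ± 0.337% in MEFD3min to 4.06 ± 0.276% in MEFD3plu although its own level rose.

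Dgat1 made up 92.4 ± 2.41% of the diacylglycerol acyltransferase step in MEFD3min and 29.1 ± 1.79% in MEFD3plu, where Dgat2 led, and 53.9 ± 1.36% in MEFD5plu, where Dgat1 led again. The summed level of the step was 6.04 ± 0.455 CPM per kb in MEFD3min, 134 ± 4.58 in MEFD3plu and 62.0 ± 1.72 in MEFD5plu. Lpin1 held 26.8 ± 1.48% of the lipin genes in MEFD3min and 72.1 ± 2.25% in MEFD3plu, and 45.7 ± 1.61% in MEFD5plu. The lipin sum went from 12.6 ± 1.83 to 18.1 ± 1.70 CPM per kb at day 3 and from 13.7 ± 0.395 to 12.4 ± 0.586 at day 5. At the first acylation the leader was the same in all 5 conditions: Gpat4, the other endoplasmic reticulum isoenzyme, held 52.6 ± 0.667% in MEFD3plu, with Gpat3 at 35.1 ± 1.64% and Gpam at 12.3 ± 1.05%. For phosphoenolpyruvate carboxykinase the mitochondrial Pck2 led throughout, and Pck1 reached 2.37 ± 0.581% in MEFD3plu and 22.6 ± 4.72% in MEFD5plu. The genes described here led 11 of the 30 combinations of step and condition, the same number with the length of the longest transcript in place of all exon bases. Part of this count was fixed in advance, because the diacylglycerol acyltransferase step holds only Dgat1 and Dgat2. One of the genes described here therefore leads that step in all 5 conditions, whatever the values.

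**Figure D4:**
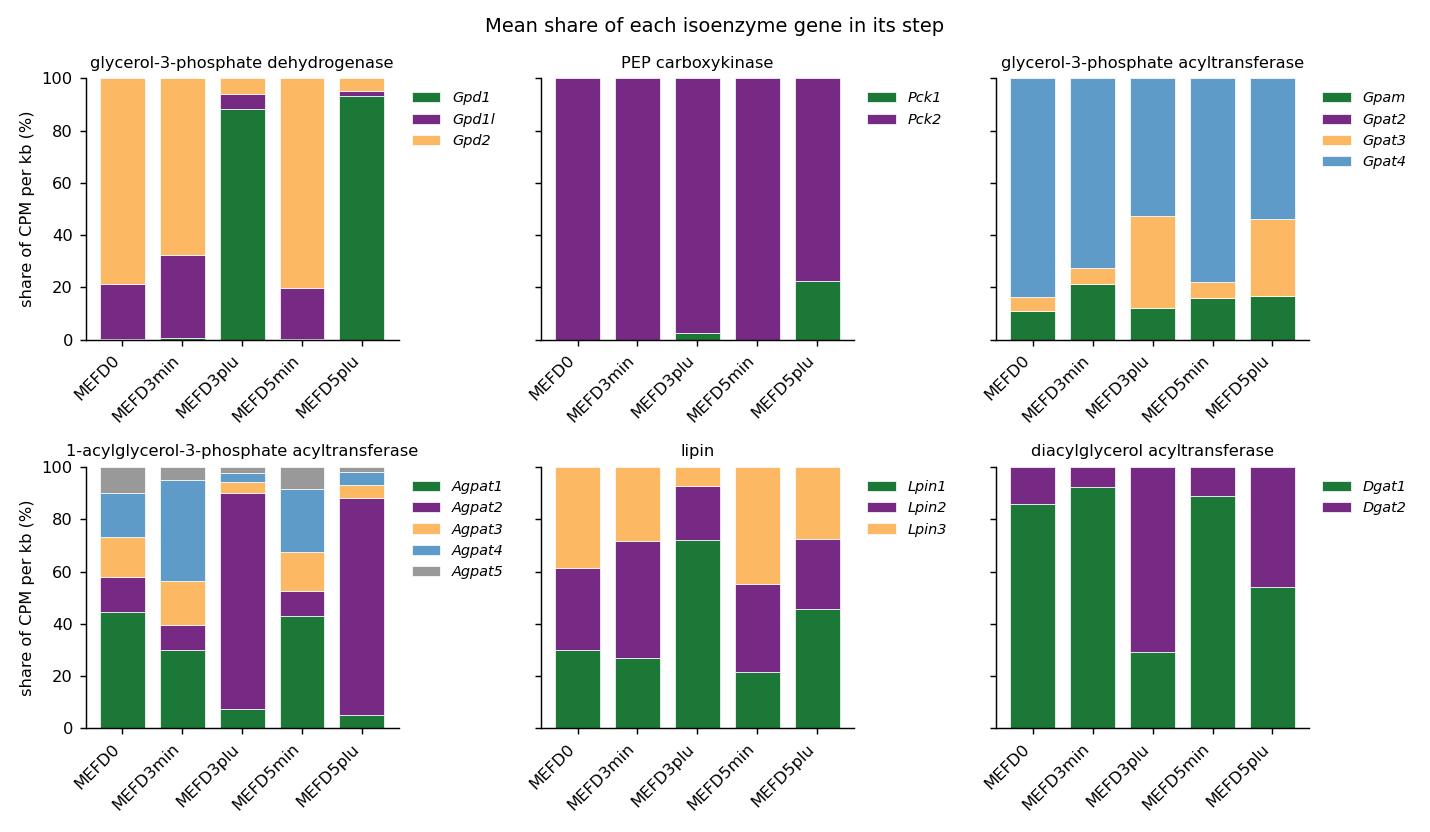
Mean share of summed CPM per kb (vertical, %) of each isoenzyme gene at 6 steps, over 3 samples in each of the 5 conditions (horizontal). Gpd1, Agpat2, Lpin1 and Dgat2 take most of their step in MEFD3plu, while Gpat4 and Pck2 remain the largest part of theirs.

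Other genes of the pathway were counted from whole lists. Of 14 alternate enzymes and glycerol handling genes, 11 were tested. At day 3, 6 were higher and 4 lower in treated cells, and at day 5, 4 higher and 4 lower, with median log2 fold changes of 0.43 and 0.06. For comparison with this list and those below, 4480 of all 15997 genes tested were higher and 4487 lower at day 3. At day 5, 4210 were higher and 3870 lower. Aqp7, the glycerol channel of fat cells, rose from 0.0886 to 3.07 CPM at day 3 (adjusted p = 1.03e-08) and reached 10.6 CPM in MEFD5plu, and Gk, glycerol kinase, rose by 1.87 at day 3 (adjusted p = 3.27e-11) and 1.26 at day 5 (adjusted p = 7.32e-09). Mean levels of Agpat5 went from 33.0 to 92.7 CPM at day 3 and from 44.7 to 61.2 CPM at day 5. In contrast to the genes described here, Lpin3 fell by 1.49 and 0.86, Gpd2 by 0.53 and 0.61, and Lpin2 by 0.58 and 0.46. Gpat4 rose by 1.10 at day 3 and differed by 0.06 at day 5 (adjusted p = 0.52), and Pck2, at 115 to 150 CPM in all conditions, passed at neither day. Gpat2, Mogat1 and Mogat2 were too low to test.

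Of 10 genes that lead phosphatidate and diacylglycerol to phospholipid or between each other, 9 were tested, with 4 higher and 2 lower at day 3 and 4 higher and 3 lower at day 5. The largest increase was that of Chpt1, choline phosphotransferase, by 1.52 and 2.82, and the largest decrease that of Plpp2, a phosphatidate phosphatase of the plasma membrane, by 1.30 and 0.66. All 5 long-chain acyl-CoA synthetases, which activate fatty acids for the acylations, were tested. At day 3, 2 were higher and 3 lower, and at day 5, 1 was higher and 2 lower. Acsl1, the main form of fat cells, rose by 7.02 at day 3 and 6.08 at day 5, from 12.7 to 1656 CPM and from 15.6 to 1059 CPM, and Acsl6 fell by 3.87 and 2.07.

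Start regions were searched for letter patterns on both strands in the 250 bases before each RefSeq start. Gpam, Gpat3, Agpat2, Agpat3, Lpin1 and Pck1 had an entry, with 7 windows in all, and Gpd1, Dgat1 and Dgat2 had none. Agpat3 held the C/EBP type pattern TTGCNNAA, as TTGCTCAA beginning 149 bases before the start, as did 9.56% of the 32851 windows of all genes. The Agpat3 window lies inside the annotated gene, and 159 of its 250 bases are in annotated Agpat3 exons. Those of Gpat3 and Pck1 hold 99 and 25 such bases of their own genes. Pck1 held TNACGTCA, a cAMP response element type pattern, as TTACGTCA beginning 93 bases before the start, as did 2.52% of all windows. This pattern was added after the windows were seen and takes in TGACGTCA, which 1.55% held. The direct repeat AGGNCA spaced by 1 base of the PPAR-RXR type (0.338% of all windows), GNACA and TGTNC spaced by 3 bases of the glucocorticoid receptor type (0.387%), TCACNCCAC of the SREBP type (1.05%) and TATAAA (12.4%) were not matched in the 7 windows. A match is a run of letters and not a measured binding site.

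For each enzyme gene the 3 reported genes with the most similar log2 CPM over the 15 samples were taken by Pearson's r, among 11445 genes whose log2 CPM averaged 1 or more. The points are 6 treated and 9 untreated samples that share the medium and day of their condition. Gpd1 was nearest to the fat cell genes Cidec (r = 0.996), Adipoq (0.989) and Fabp4 (0.988), and Agpat2 to Lpl (0.998), Fabp4 (0.995) and Abhd5 (0.995). Dgat1 was nearest to Lpl (0.995), Car5b (0.994) and Pex11a (0.994), and Dgat2 to Pde3b (0.995), Pcx (0.994) and Pnpla2 (0.994). Gpat3 was nearest to Pcx (0.996), Cat (0.993) and Pank3 (0.992). The late-rising Pck1 had Hadhb (0.991), Acaa1b (0.990) and Scd1 (0.986), of which Hadhb and Acaa1b code for enzymes of fatty acid oxidation. Lpin1 was nearest to Miga2 (0.990), Pigl (0.988) and Gramd1b (0.987). The weakly changed pair had different neighbours, with Cyth1 (0.986), Entpd5 (0.975) and Natd1 (0.974) for Gpam and Cped1 (0.983), Angpt1 (0.983) and Retsat (0.975) for Agpat3.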

How the data were processed

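RNA-Seq was made from the 15 samples. The authors deposited raw counts of reads per Ensembl gene, without normalization. Per the labels, the submitters' processing notes name TopHat2 2.1.0, HTSeq, DESeq2 and GRCm38. The annotation release, strand setting and handling of reads with several matches are not given in the sources used here, and the labels and the paper's methods name different TruSeq kits, 1 without and 1 with strand, so antisense overlaps stand beside the genes they touch. Totals ran from 24030558 to 37281126 counts, and the counting intervals of summed reads and the floors cover counting error only.

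Counts were tested in edgeR 4.0.16 (R 4.3.3) by glmQLFit and glmQLFTest, with TMM scaling, filterByExpr on the 5 conditions (15997 of 46603 genes kept) and 1 fit of all 15 samples without covariates. Calls have a Benjamini-Hochberg adjusted p under 0.05 over all genes tested. A condition with at most 3 counts in every library was treated as at the floor. Symbols came from GENCODE M21 for 46005 of the genes. Mean and SD are over 3 samples, and 95% intervals of log2 fold changes come from the standard errors of the fit of 15 samples. These intervals use a normal approximation and are therefore narrower than the quasi-likelihood test implies. An interval that leaves out 0 can go with an unadjusted p above 0.05. With 3 against 3, no exact two-sided test of 1 value can go below 0.1. On data simulated for MEFD3plu/MEFD3min over 15536 genes, 64 of 85 genes changed by 1 log2 unit and 103 of 109 changed by 2 were recovered, with 10 false calls. Far fewer genes changed in the simulation than in the real comparison, where 8967 of 15997 genes were called. The rates therefore need not hold for the real data.

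All 9 enzyme genes were named, with any tested alternate enzyme, the largest increase and decrease among those that passed in the phospholipid and acyl-CoA synthetase lists, and for each enzyme the 3 genes nearest in pattern, passing over genes that are not reported here. Marker genes and overlapping genes named singly (Adipoq, Cidec, Snap25, Ptprc, Adgre1, Cd68, Csf1r, Lyz2, Cd14, Des, Cdh5, Krt8, Gm16537, 4930458D05Rik, Gm42987) were picked after their values were seen. Members, lists and rules were chosen with earlier results of these data known. Alternatives were DESeq2 1.42.0, its size factors, library totals alone, 2 other filters, a stricter threshold, a fold minimum, a fit of only the samples compared, a replicate block and leaving out each sample. Same-numbered samples of MEFD3plu and MEFD3min deviated together over genes (correlations of 0.143 to 0.36). Those of MEFD3min and MEFD0 (0.0837 to 0.18) and of MEFD3plu and MEFD0 (0.0706 to 0.124) did so more weakly. Mean correlations of the other comparisons were at most 0.0764. Any pairing by number is thus read from the data and not from the labels. The main fit left it out, and the replicate block takes it in.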

Additional observations from a re-analysis of the deposited data

Results flagged for a closer look

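The treatment effect differed between day 3 and day 5 for 5 of the 9 enzyme genes by the test of the treatment by day interaction (edgeR, adjusted p under 0.05 over all genes). It did so for 48.5% of all genes tested, so the count is near that share and does not set these genes apart. As day 3 minus day 5 on the log2 scale, the difference was 2.1 for Dgat2, 1.22 for Gpat3, 1.02 for Lpin1, -0.53 for Agpat3 and -3.48 for Gpd1, whose untreated samples held 0 to 19 reads. Without MEFD3min replicate 3 the Gpd1 difference was -2.11 and did not pass (adjusted p = 0.108), which left 4 of the 9 genes. Of the 11 tested alternate enzymes and glycerol genes, 8 differed in the same way, with 1.07 for Agpat1, 1.05 for Gpat4, 1.04 for Agpat5, 0.61 for Gk, 0.44 for Gpd1l, -0.64 for Lpin3, -1.19 for Agpat4 and -2.89 for Aqp7, whose MEFD5min samples held 4 reads in all. Groups of 3 samples were not searched for single outlying values.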

How the results depend on the processing

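All 9 enzyme genes stayed higher in treated cells at each day, and against MEFD0, with DESeq2, its size factors, library totals, no filter, the fit of only the samples compared, the replicate block and each of 15 samples left out. A filter of 10 counts in every sample left Gpd1 and Pck1 untested. Of 1831 refitted values, 1729 kept direction and side of the threshold, and 94 of the 102 that did not were outside the comparisons of treated with untreated cells. The other 8 were values of Gpam, Agpat3 and Lpin1 at a fold of at least 2. Otherwise the cause was not tested. Library totals moved the median of all genes at day 5 to -0.15 and the share higher among called genes from 52.1% to 37%, and that share from 46.7% to 59.5% for the interaction, 49.7% to 62.7% for MEFD5min/MEFD3min and 54.2% to 43.7% for MEFD5plu/MEFD0, without turning any of the 9 genes in treated against untreated cells.

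For MEFD3min/MEFD0 4 genes were called, and 0 at a fold of at least 2. For MEFD5min/MEFD0 2 were called, 1 at an adjusted p under 0.01, without a filter or with only the samples compared, and 0 at a fold of at least 2. For MEFD5min/MEFD3min 4 were called, 2 at an adjusted p under 0.01, with library totals or with only the samples compared, and 0 at a fold of at least 2. For MEFD5plu/MEFD3plu 8 were called, and 5 at a fold of at least 2. With 1 sample left out, the counts ran from 1 to 3 for MEFD5min/MEFD0, 2 to 5 for MEFD5min/MEFD3min, 4 to 5 for MEFD3min/MEFD0, 7 to 8 for MEFD5plu/MEFD3plu and 4 to 5 for the interaction. The count for MEFD5min/MEFD0 was 1 without MEFD0 replicate 4 or MEFD5min replicate 1, and that for MEFD5min/MEFD3min was 2 without MEFD5min replicate 3 or 4.

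Values near 0 changed sign. Gpat3 in MEFD5min/MEFD3min was 0.00831 with library totals. The Agpat2 interaction was 0.0279 with the size factors of DESeq2, 0.18 with library totals, 0.0314 with only the samples compared and 0.0286 with DESeq2. Agpat3 in MEFD5plu/MEFD3plu was -0.037 with the size factors and with DESeq2, -0.0788 with library totals, -0.0206 without a filter and -0.0341 with only the samples compared. The Dgat1 interaction was -0.00354 without a filter. With 1 sample left out, Gpd1 in MEFD3min/MEFD0 ran from -0.47 (without MEFD3min replicate 3) to 1.72, Lpin1 in MEFD3min/MEFD0 from -0.17 to 0.0885, the Agpat2 interaction from -0.0804 to 0.13, the Dgat1 interaction from -0.0296 to 0.0798, and Agpat3 in MEFD5plu/MEFD3plu from -0.0391 to 0.0234.

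With the replicate block, Agpat2 in MEFD3min/MEFD0 was -0.22 (adjusted p = 0.0498) and Gpd1 in MEFD5min/MEFD3min -2.25 (adjusted p = 0.0481), both now past the threshold. It changed no other call on the 9 genes, and all 9 were called at day 3 and at day 5. Depth limits Pck1 and Gpd1 in untreated samples, whose fold changes rest on counts of 0 to 19.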
